A study of Mus musculus with 24 samples.

Results

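The 8 libraries with the most ileal and the 8 with the least ileal expression profile among 24 mouse small intestine libraries were set against each other, to describe which genes differ with the position from which a piece of tissue appears to come. The sets were chosen by a position score made from 4 genes. The score is log2(*Fabp6* CPM + 1) plus log2(*Slc10a2* CPM + 1), minus log2(*Fabp1* CPM + 1) and log2(*Gata4* CPM + 1), where CPM is the read count of a gene relative to its library's size, as edgeR's cpm function gives it with TMM scaling. The 8 highest libraries are called distal-like, the 8 lowest proximal-like, and the other 8 belong to neither set. All animals were C57BL/6N mice of both sexes, 4 to 5 weeks old at the start, and every library carries the label of distal small intestine or ileum. The CD group received a control diet with 10% of its energy from fat, and the HFD group a high-fat diet with 60%. From week 20 on, the animals of CDmetf and HFDmetf had metformin, a glucose-lowering drug, in their drinking water at 50 mg/kg body mass/day over 10 weeks. A group had 6 libraries, 3 from males (M) and 3 from females (F), numbered by the labels, and each animal came from a cage of its own in the study's methods. Where along the distal small intestine each piece was cut was not analysed here, because the labels give no finer position.

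The small intestine changes its work from duodenum to ileum. The proximal part digests sugars and absorbs fat, iron and folate, and its enterocytes carry lactase, apolipoproteins and drug-metabolizing enzymes. The ileum takes back bile acids and vitamin B12. Hox genes, which encode homeodomain transcription factors, are laid out in clusters whose order on the chromosome follows the order of expression along the body axis, with low numbers anterior and high numbers posterior.

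Depth differed between libraries and overlapped between the sets, with 1829690 to 26687199 reads on genes in the distal-like set (median 3032097) and 2322210 to 40606442 in the proximal-like set (median 6119228). A count of 3 reads corresponded to between 0.0730 and 1.48 CPM over these 16 libraries, which covers counting error only. The library labelled HFD M2, in the distal-like set, had 3355 reads on the X-inactivation transcript *Xist* and 0 on the Y-linked *Ddx3y*, and the library labelled HFD F2, in the proximal-like set, had 1 and 88. Both go against their sex labels, and counts without them are given beside the main ones. In CD M3, which is in neither set, the 10 largest genes took 85.4% of the reads, against 36.6% in the distal-like HFDmetf F2 and at most 18.97% in the other 15 libraries of the sets.

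*Fabp6* encodes the ileal bile acid binding protein and *Slc10a2* the bile acid transporter of the ileal brush border. *Fabp1* encodes the fatty acid binding protein of liver and proximal intestine, and *Gata4* a transcription factor of duodenum and jejunum. These 4 genes chose the sets, so their values are a description with no test. Levels are given here and below as the lowest, the median and the highest of the 8 libraries. The lowest, median and highest levels of *Fabp6* were 1054, 1703 and 2632 CPM in the distal-like set and 0.784, 144 and 1273 CPM in the proximal-like set. For *Slc10a2* they were 53.7, 593 and 1420.0 CPM against 4.71, 33.05 and 76.8 CPM. *Fabp6* and *Slc10a2* overlapped between the sets. *Fabp1* stood at 0, 4.28 and 9.90 CPM against 58.6, 290.0 and 1593 CPM, and *Gata4* at 0.285, 2.16 and 19.6 CPM against 53.97, 81.99 and 113 CPM, both without overlap. HFD M3 had the lowest *Fabp6* and *Slc10a2* and the highest *Fabp1* of the 24 libraries.

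The score ran from 19.12 in CDmetf M2 to −14.07 in HFD M3. The last library inside the distal-like set was HFDmetf F2 at 11.53 and the first outside it HFDmetf M1 at 10.43. At the other border, CDmetf F3 lay inside the proximal-like set at 2.454 and HFD M1 outside at 2.504, so that border separates libraries with nearly the same score.

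**Figure D1:**
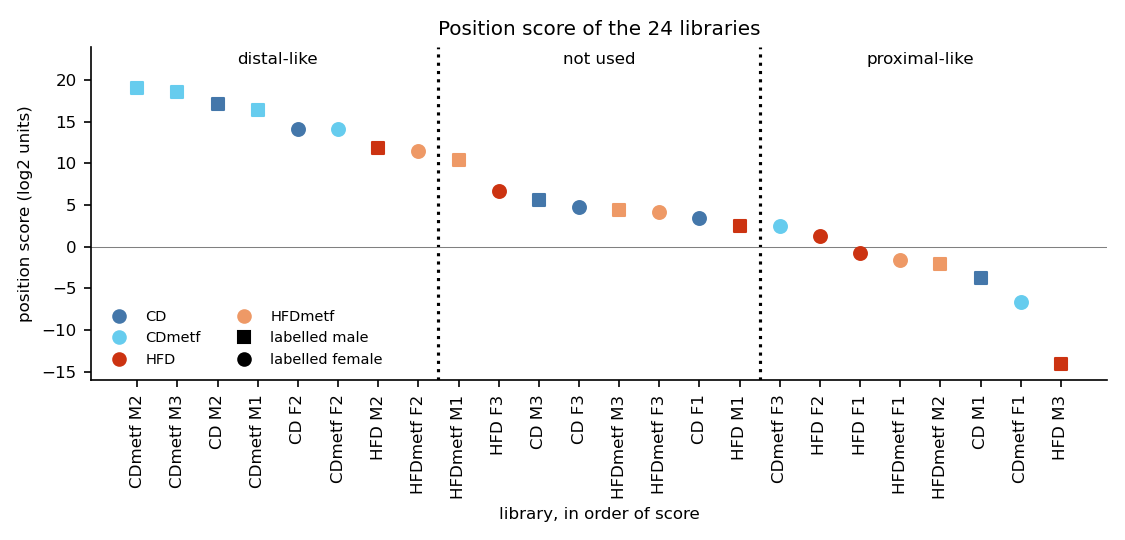
Position score (log2 units, y axis) of each of the 24 libraries in order of score (x axis), with the group as colour and the labelled sex as symbol. Dotted lines mark the 8 highest libraries, from 19.12 to 11.53, and the 8 lowest, from 2.45 to −14.07. At the lower border the scores inside and outside were 2.454 and 2.504.

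Outside the 4 genes, 14072 genes passed the filter on low counts. Of these, 75 (0.533%) were higher in all 8 distal-like libraries than in any proximal-like library, and 237 (1.68%) were lower in all 8. These genes are said below to differ without overlap. Differences are the mean log2(CPM + 1) of the distal-like set minus that of the proximal-like set, a scale that understates differences of low genes, with an SE from n = 8 libraries in each set. The median difference over all 14072 genes was −0.03, with 6464 above and 7608 below 0. Because the sets were chosen from the measured profile, no test is attached to these counts. With HFD M2 and HFD F2 both left out the counts were 111 and 325, which contain the 75 and the 237, since leaving libraries out can only add such genes. Without HFDmetf F2 the count of higher genes rose to 120, and without HFDmetf M2 both counts rose, to 159 and 397.

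The 8 libraries in neither set were not compared to find these genes. They did enter the scaling and the filter, and by the score they lie between the sets. In these 8 libraries the median level lay between the medians of the sets for 72 of the 75 higher genes (96%) and for 224 of the 237 lower genes (94.5%), beside 48.5% of all 14072 genes. Genes chosen for not overlapping have set medians that lie apart, so the share of all genes is no like baseline here. When these 8 were split by score, the mean of the upper 4 was above that of the lower 4 for 72 of the 75 (96%) and for 13 of the 237 (5.49%), beside 54.3% of all genes. The upper 4 include HFDmetf M1, and the split is by the score itself. Without HFDmetf M1, a setting chosen after seeing the data, the shares were 59 of the 75 (78.7%) and 33 of the 237 (13.9%), beside 53.8% of all genes. No test was made of these shares.

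Of the 12 largest higher differences without overlap, 5 were those of Hoxb genes. The cluster lies on the plus strand of chromosome 11 (GRCm38), from *Hoxb13* at chr11:96194316-96197447 to *Hoxb1* at chr11:96365752-96368256. All 7 genes from *Hoxb3* to *Hoxb9* were higher on average in the distal-like set (median difference 2.15), and 6 of the 7 did not overlap, beside 0.533% of all genes. The lowest, median and highest levels of *Hoxb9* (ENSMUSG00000020875, chr11:96271457-96276595) were 13.5, 44.2 and 56.3 CPM in the distal-like set and 0, 0.825 and 2.53 CPM in the proximal-like set, a difference of 4.33 (SE = 0.337). The 2 distal-like libraries with the lowest *Hoxb9* were HFD M2 at 13.5 CPM and HFDmetf F2 at 23.2 CPM, still above every proximal-like library.

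Neighbouring members of the cluster followed with smaller differences. *Hoxb8* had 13.8, 22.8 and 32.9 CPM against 1.64, 2.86 and 4.64 CPM, and *Hoxb6* had 18.3, 35.98 and 46.4 CPM against 2.31, 3.51 and 6.14 CPM. Differences were 2.62 (SE = 0.215) for *Hoxb8*, 2.05 (SE = 0.156) for *Hoxb7*, 2.83 (SE = 0.232) for *Hoxb6* and 2.15 (SE = 0.226) for *Hoxb5*. Toward the anterior end *Hoxb4* reached 1.34 (SE = 0.213), with ranges of 4.488 to 13.4 CPM and 1.65 to 4.501 CPM that overlapped, and *Hoxb3* 1.41 (SE = 0.273) without overlap. *Hoxb2*, *Hoxb1* and *Hoxb13* at the 2 ends did not pass the filter on low counts. *Hoxb2* had at most 3.53 CPM and differed by 0.41 (SE = 0.262), while *Hoxb13*, the posterior member known from hindgut, had 0 reads in all 8 distal-like libraries. Of *Hoxb3* to *Hoxb9*, *Hoxb9* thus had the largest difference and *Hoxb4* the smallest, on the log2(CPM + 1) scale.

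Transcripts on the posterior side of *Hoxb9* were also higher. *Gm53*, a lincRNA gene at chr11:96251105-96264868, had 5.77, 30.02 and 37.995 CPM against 0, 0.502 and 1.36 CPM, a difference of 4.05 (SE = 0.339). The hairpin gene *Mir196a-1* (chr11:96265164-96265265), chosen after its values were seen, lies between *Gm53* and *Hoxb9*. It did not pass the filter and differed by 1.12 without overlap. Its reads cover the hairpin locus and do not measure the mature miRNA. The antisense gene *Hoxb5os* overlaps *Hoxb5* and *Hoxb6*, and *Gm11536* and *Hoxb3os* overlap *Hoxb3*. The strand used in counting is not given in the sources used here, so reads of these 3 Hoxb genes may include antisense transcripts.

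**Figure D2:**
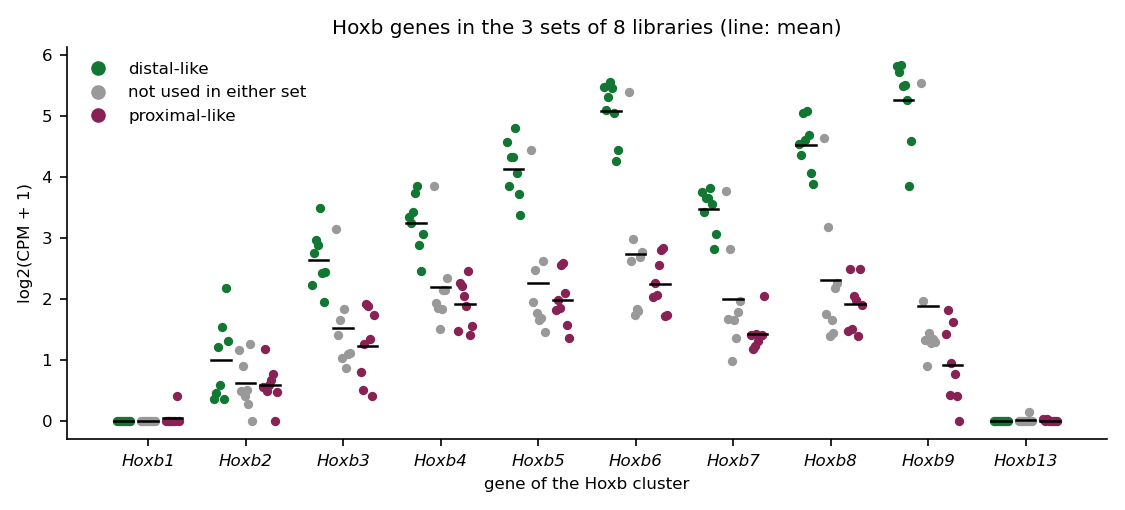
Level of each Hoxb gene as log2(CPM + 1) (y axis) in the distal-like (green), unused (grey) and proximal-like (purple) libraries, 8 points and a mean line each, with genes in order of number on the x axis. *Hoxb3* and *Hoxb5* to *Hoxb9* separate the sets, 1 grey library (HFDmetf M1) lies with the green ones, and *Hoxb1* and *Hoxb13* stay near 0.

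The other Hox clusters differed less. In the Hoxc cluster 2 of 9 genes were higher without overlap, beside 0.533% of all genes past the filter. *Hoxc8* had 11.1, 14.9 and 20.7 CPM against 4.31, 8.91 and 10.0 CPM, a difference of 0.84 (SE = 0.155), and *Hoxc9*, which did not pass the filter, 0.962, 1.75 and 4.15 CPM against 0, 0.0911 and 0.422 CPM. *Hoxc6* differed by 0.59 (SE = 0.158) with overlap. In the Hoxa cluster none of 11 and in the Hoxd cluster none of 9 genes separated the sets, and their median differences were 0 and 0.09. The Hoxa differences ran from −0.43 (*Hoxa2*) to 0.45 (*Hoxa5*), and the Hoxd differences from 0 to 0.57 (*Hoxd9*). *Hoxa5* and *Hoxa7* passed the filter and differed by 0.45 (SE = 0.231) and 0.40 (SE = 0.227). Only 3 Hoxa genes and 1 Hoxd gene passed the filter, so the others were too low to read a difference from at this depth.

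Outside the Hox genes, the largest of the higher differences was that of *Slc25a48* (ENSMUSG00000021509, chr13:56438355-56474239), which encodes a mitochondrial carrier. Its levels were 3.94, 73.9 and 127 CPM in the distal-like set and 0, 1.27 and 2.80 CPM in the proximal-like set, a difference of 4.63 (SE = 0.582). HFDmetf F2 was the low distal-like library at 3.94 CPM, while the other 7 had 47.1 CPM or more. *Suox*, which encodes sulfite oxidase, had 223, 420.1 and 550.5 CPM against 18.1, 42.1 and 181 CPM, a difference of 3.03 (SE = 0.394). Of the proximal-like libraries HFD F2 came nearest with 181 CPM.

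*Rnf180*, which encodes a ubiquitin ligase, differed by 2.38 (SE = 0.207), with 11.2 to 28.9 CPM against 1.57 to 4.24 CPM. *Car12*, a membrane carbonic anhydrase, differed by 1.91 (SE = 0.276), with 27.1 to 99.2 CPM against 7.57 to 24.2 CPM. *Card9*, an adaptor of innate immune receptors, differed by 1.97 (SE = 0.202), with 4.44 to 13.1 CPM against 0.392 to 2.31 CPM. The 12 higher genes with the largest differences also included *1700057G04Rik* (2.25 (SE = 0.439)), *Gm53* and *Hoxb5* to *Hoxb9*.

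Genes of ileal bile acid handling other than the rule genes were mostly higher, but none of the 5 separated the sets. The bile acid exporter subunit *Slc51a* had 223, 652 and 1009 CPM against 126, 279 and 622 CPM, and *Nr1h4*, which encodes the bile acid receptor FXR, 45.8, 104 and 154 CPM against 13.3, 39.02 and 68.4 CPM. Their differences were 1.01 (SE = 0.343) and 1.37 (SE = 0.311). *Fgf15*, the hormone that the ileum releases on bile acid uptake, had 11.4, 55.8 and 168 CPM against 0, 21.6 and 94.7 CPM and differed by 1.41 (SE = 0.869). *Slc51b*, the partner subunit of *Slc51a*, differed by 0.44 (SE = 0.436), and *Nr0b2*, an FXR target below the filter, by −0.29 (SE = 0.391). The list had 4 of 5 genes above 0 and a median of 1.01, beside −0.03 over all genes.

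The genes of vitamin B12 and phosphate uptake did not separate the sets. *Cubn* and *Amn*, which form the ileal receptor of vitamin B12 with intrinsic factor, differed by 0.17 (SE = 0.388) and −0.45 (SE = 0.329), and the phosphate transporter *Slc34a2* by −0.21 (SE = 0.655). Only 1 of the 3 was above 0.

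Among the enteroendocrine peptides, *Gip*, the incretin of proximal K cells, was lower without overlap, with 0, 3.44 and 8.38 CPM against 24.7, 34.6 and 47.4 CPM and a difference of −3.37 (SE = 0.460). *Cck*, cholecystokinin, differed by −1.47 (SE = 0.271), *Ghrl*, ghrelin, by −0.66 (SE = 0.196) and *Sct*, secretin, by 0.25 (SE = 0.149). In the other direction *Gcg*, which encodes proglucagon and so glucagon-like peptide, had 36.3, 79.9 and 121 CPM against 15.8, 32.8 and 55.8 CPM and differed by 1.17 (SE = 0.304) with overlap. Peptide YY (*Pyy*), neurotensin (*Nts*) and *Insl5* differed by 0.33 (SE = 0.189), −0.30 (SE = 0.298) and 0.32 (SE = 0.114), and *Insl5* did not pass the filter. The proximal peptides thus had 1 of 4 genes lower without overlap, beside 1.68% of all genes, and the distal peptides 0 of 4 separated.

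**Figure D3:**
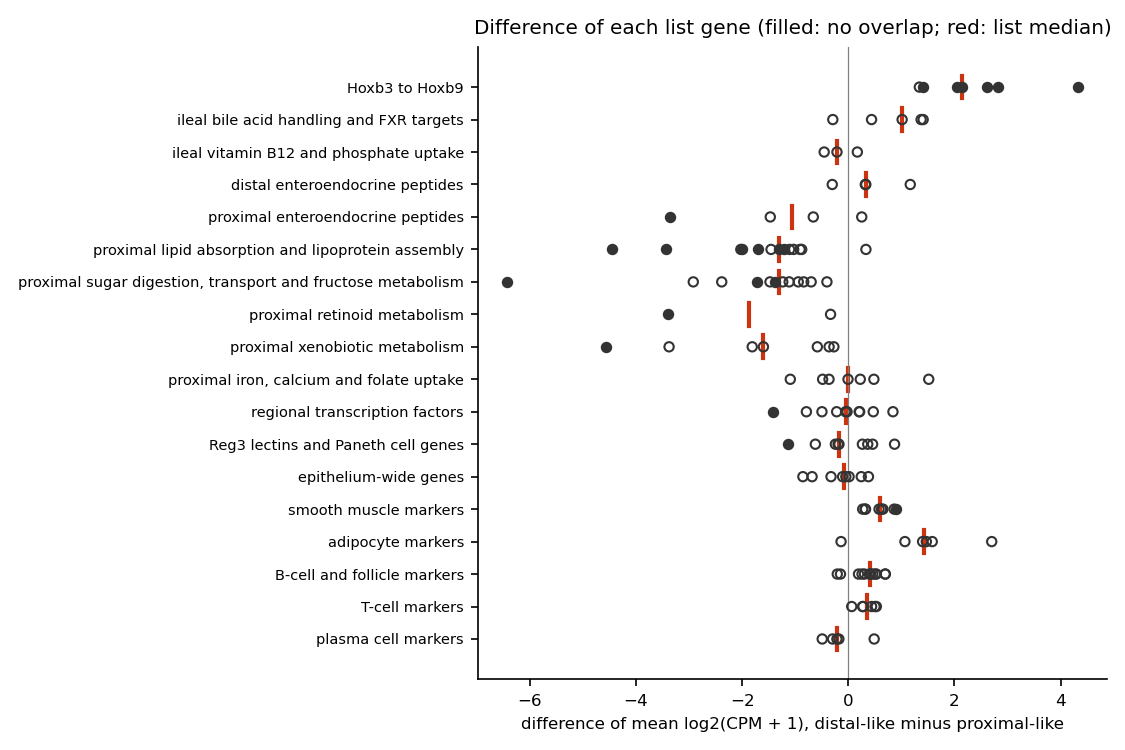
Difference of mean log2(CPM + 1), distal-like minus proximal-like (x axis), for each gene of 18 gene groups (rows), with a red bar at the group's median and filled points for genes without overlap. *Hoxb3* to *Hoxb9* lie to the right of 0 (median 2.15), the lipid and sugar groups to the left (medians −1.30 and −1.31), and the epithelium-wide genes around 0.

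Genes of sugar digestion and uptake made up the group with the largest single difference. *Lct* (ENSMUSG00000026354, chr1:128284756-128328318, minus strand), which encodes lactase, had 0.952, 23.6 and 421 CPM in the distal-like set and 873, 2598 and 3112 CPM in the proximal-like set, a difference of −6.43 (SE = 0.984). HFD M2 was the highest of the distal-like libraries at 421 CPM and HFD F2 the lowest of the proximal-like ones at 873 CPM, the pair whose sex-linked transcripts go against the labels. All 12 genes of the group were lower on average (median −1.31), and 3 were lower without overlap, beside 1.68% of all genes. The others of these 3 were trehalase (*Treh*, −1.73 (SE = 0.299)) and ketohexokinase (*Khk*, −1.39 (SE = 0.232)), the first enzyme of fructose breakdown. The glucose transporter *Slc2a2* differed by −2.92 (SE = 0.559) and *G6pc*, glucose-6-phosphatase, by −2.38 (SE = 0.562), both with overlap. Fructose transporter *Slc2a5* differed by −1.47 (SE = 0.496). The disaccharidases sucrase-isomaltase (*Sis*, −0.94) and *Mgam* (−0.40), which work along the whole small intestine, were among those that differed least, as were *Fbp1* (−0.70) and *Pck1* (−0.84), all 4 chosen after their values were seen.

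Fat absorption gave the same direction. In that list 12 of 13 genes were lower on average (median −1.30), and 6 of the 13 were lower without overlap, beside 1.68% of all genes. *Apoa4* (ENSMUSG00000032080, chr9:46240696-46243459), an apolipoprotein of chylomicrons, had 31.02, 68.5 and 177 CPM against 258, 1552 and 6268 CPM, a difference of −4.45 (SE = 0.611). CDmetf F3, at the border of the proximal-like set, was its lowest library there at 258 CPM. *Apoc3* had 5.42, 12.2 and 17.6 CPM against 44.4, 128 and 205 CPM and differed by −3.43 (SE = 0.331). *Mttp*, which loads lipid onto apolipoprotein B, had 197, 493 and 721 CPM against 1106, 1698 and 2455 CPM and differed by −1.99 (SE = 0.271). The triglyceride synthesis enzymes *Dgat1* and *Mogat2*, chosen after their values were seen, differed by −1.30 (SE = 0.175) and −1.22 (SE = 0.256), and the apolipoprotein *Apoa1* by −1.45 (SE = 0.318). *Creb3l3*, a transcription factor of lipid metabolism genes, differed by −1.71 (SE = 0.273), also without overlap. The intestinal fatty acid binding protein *Fabp2* differed by −2.02 (SE = 0.358) with overlap. The 1 gene above 0 was the lipoprotein receptor *Scarb1* (0.33 (SE = 0.432)), chosen after its values were seen.

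Retinoid and xenobiotic genes were lower as well. *Rbp2*, the retinol binding protein of enterocytes, had 26.6, 93.3 and 117 CPM against 275, 1007 and 2517 CPM, a difference of −3.40 (SE = 0.445) without overlap, while the carotene-cleaving *Bco1* differed by −0.33 (SE = 0.637). *Cyp2b10*, a cytochrome P450, had 0, 0.741 and 1.03 CPM against 9.24, 45.7 and 98.2 CPM, and was listed at 0 in 3 distal-like libraries. Its difference was −4.57 (SE = 0.477). *Cyp3a11* had 1.03, 3.93 and 9.94 CPM against 8.65, 58.2 and 155 CPM and differed by −3.38 (SE = 0.554), its ranges overlapping narrowly. All 7 xenobiotic genes were below 0 on average (median −1.60), 1 of them without overlap, beside 1.68% of all genes. The cytochrome *Cyp3a25* and the glutathione transferase *Gsta1* differed by −1.60 (SE = 0.395) and −0.58 (SE = 0.346), and the 2 receptors in the list differed by −1.81 (*Nr1i3*, CAR) and −0.36 (*Nr1i2*, PXR). Cytochrome genes have close copies, and how multi-mapped reads were counted can split their reads.

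Iron, calcium and folate uptake showed no common direction, with 4 of 7 genes below 0, none without overlap, and a median of −0.01. The folate transporter *Slc46a1* differed by −1.09 (SE = 0.380). The iron exporter *Slc40a1* was higher in the distal-like set, with 16.3, 40.7 and 51.6 CPM against 7.67, 12.5 and 18.04 CPM and a difference of 1.52 (SE = 0.226). The iron importer *Slc11a2* and the ferric reductase *Cybrd1* differed by −0.36 (SE = 0.179) and 0.48 (SE = 0.199), *Heph* by −0.48 (SE = 0.261), and the other 2 genes, both of calcium uptake, did not pass the filter.

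Outside the lists, 12 genes had the largest lower differences without overlap. *Ugt2a3*, a glucuronosyltransferase, had 0.102, 0.993 and 6.73 CPM against 43.8, 76.1 and 138 CPM, a difference of −5.14 (SE = 0.408). *Dnase1*, deoxyribonuclease I, had 0.583, 1.32 and 8.65 CPM against 43.2, 92.5 and 158 CPM, a difference of −5.10 (SE = 0.374). The sphingolipid-digesting enzymes *Enpp7* (alkaline sphingomyelinase) and *Asah2* (neutral ceramidase) differed by −4.37 (SE = 0.868) and −3.36 (SE = 0.425). *Enpp7* had 2.00, 124 and 875 CPM against 1011, 2085 and 2847 CPM. HFD M2 held the highest distal-like value of *Ugt2a3*, *Dnase1* and *Enpp7* alike, at 6.73, 8.65 and 875 CPM.

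Transporters among these 12 were *Slc9a3* (sodium-proton exchanger, −3.62 (SE = 0.383)), *Slc23a1* (ascorbate, −3.92 (SE = 0.305)) and *Slc28a1* (nucleosides, −4.03 (SE = 0.398)). *Slc9a3* had 2.28, 10.5 and 32.1 CPM against 84.4, 148 and 201 CPM. *Adh6a*, an alcohol dehydrogenase, differed by −4.10 (SE = 0.387), *Acot12*, an acyl-CoA thioesterase, by −4.02 (SE = 0.442), *Enpp3*, a nucleotide-cleaving ectoenzyme, by −3.99 (SE = 0.548), *Hsd17b6*, a steroid dehydrogenase, by −3.29 (SE = 0.303) and *Efr3b*, a membrane scaffold protein, by −3.32 (SE = 0.284). All 12 were above their distal-like range in every proximal-like library, as the rule for naming them requires.

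Upstream sequences are shown for 2 of the lower genes with the largest differences and for a Hoxb gene, since members of both groups separated the sets. The 250 bases before the start are from RefSeq (GRCm38.p6), read 5′ to 3′ on the gene's own strand, and capitals mark 3 kinds of word searched on both strands. The GATA words are AGATAA, its variant AGATAG, the word TGATAA and its variant TGATAG, and the others are the caudal-type homeobox word TTTATG and the HNF1 half-site GTTAAT. *Lct* is shown at chr1:128328319-128328568 (minus strand), *Ugt2a3* at chr5:87337196-87337445 (minus strand) and *Hoxb8* at chr11:96281655-96281904 (plus strand).
Lct: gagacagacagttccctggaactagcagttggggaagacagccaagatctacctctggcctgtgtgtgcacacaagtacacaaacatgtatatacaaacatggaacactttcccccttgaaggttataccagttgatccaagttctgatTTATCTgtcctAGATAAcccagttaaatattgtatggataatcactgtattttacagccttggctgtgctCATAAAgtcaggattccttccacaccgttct
Ugt2a3: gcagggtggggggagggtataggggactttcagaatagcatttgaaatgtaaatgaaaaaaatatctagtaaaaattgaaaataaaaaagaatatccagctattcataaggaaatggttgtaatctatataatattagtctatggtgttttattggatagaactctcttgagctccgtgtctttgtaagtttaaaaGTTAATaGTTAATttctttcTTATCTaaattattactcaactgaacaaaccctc
Hoxb8: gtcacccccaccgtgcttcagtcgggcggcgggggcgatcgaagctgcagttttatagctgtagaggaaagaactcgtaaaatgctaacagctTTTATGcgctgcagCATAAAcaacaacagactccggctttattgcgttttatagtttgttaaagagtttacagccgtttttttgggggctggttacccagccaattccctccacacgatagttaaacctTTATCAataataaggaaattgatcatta

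The window of *Lct* held 2 GATA words and 1 TTTATG, that of *Ugt2a3* held 1 GATA word and 2 GTTAAT, and that of *Hoxb8* held 1 GATA word and 2 TTTATG. Other windows were extracted but are not printed. Those of *Apoa4*, *Creb3l3* and *Slc25a48* held 0 words of any kind, and that of *Enpp7* held 1 GATA word. The printed windows thus held the most words of those extracted. Windows were found for 10299 of the 14072 genes. A GATA word stood in 49 of 197 lower genes with a window (24.9%), in 11 of 56 higher genes (19.6%) and in 17.2% of all 10299. For TTTATG the shares were 9.14%, 8.93% and 6.01%, and for GTTAAT 5.58%, 5.36% and 3.93%. A match is a description of the letters and not a site of binding.

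Among 10 regional transcription factors other than *Gata4*, 1 was lower without overlap, beside 1.68% of all genes. *Onecut2* had 0.529, 1.06 and 1.92 CPM against 2.11, 3.42 and 52.5 CPM, a difference of −1.42 (SE = 0.481), and HFD M3 held the highest value. *Hnf4g*, *Gata6*, *Osr2* and *Gata5* differed by −0.79 (SE = 0.228), −0.50 (SE = 0.105), 0.47 (SE = 0.146) and −0.22 (SE = 0.200). The intestinal regulators *Cdx2*, *Cdx1* and *Hnf4a*, chosen after their values were seen, differed by 0.20 (SE = 0.186), 0.21 (SE = 0.163) and −0.02 (SE = 0.139).

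Of 9 Reg3 and Paneth cell genes, which encode antimicrobial proteins, 1 (*Reg3a*) was lower without overlap, beside 1.68% of all genes. *Reg3a* had 20.5, 25.2 and 31.2 CPM against 32.3, 62.9 and 93.6 CPM and a difference of −1.14 (SE = 0.194). *Reg3b* and *Reg3g* had wide ranges and differed by 0.87 (SE = 0.709) and 0.37 (SE = 0.495). *Mmp7*, the protease that activates defensins, and the defensin *Defa17* differed by 0.46 (SE = 0.227) and 0.27 (SE = 0.363), and the list's median was −0.18. Defensin and *Ang4* genes have close copies, so their reads can be split.

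The epithelium-wide genes had a median difference of −0.08, with 3 of 8 above 0 and none without overlap. *Epcam* and *Cdh1*, carried by all epithelial cells and chosen after their values were seen, differed by −0.05 (SE = 0.241) and 0.02 (SE = 0.146). *Vil1* and *Krt20*, higher in mature enterocytes, differed by −0.68 (SE = 0.238) and −0.86 (SE = 0.284), and *Krt18*, *Krt19*, *Krt8* and the lectin *Lgals4* by 0.38, 0.24, −0.11 and −0.33. In bulk tissue, fewer cells of a type and less RNA per cell cannot be told apart.

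Most markers of muscle, fat, B cells and T cells had higher means in the distal-like set, while most plasma cell markers had lower ones. All 8 smooth muscle markers were above 0 (median 0.60), and 1 was higher without overlap (*Lmod1*, 0.89 (SE = 0.175)), beside 0.533% of all genes. *Myh11*, *Cnn1* and *Acta2* differed by 0.86, 0.65 and 0.63. The summed level of the 8 markers ran from 1691 to 3499.9 CPM in the distal-like and from 1035 to 2242 CPM in the proximal-like libraries. Of the adipocyte markers 5 of 6 were above 0 (median 1.43), none without overlap, with sums of 11.1 to 356 CPM against 7.67 to 202 CPM. The adipokine *Cfd* had 0, 14.1 and 118 CPM against 0, 0.963 and 3.14 CPM, and CDmetf M2 was highest. *Adipoq*, *Retn*, *Plin1*, *Fabp4* and *Lep* differed by 1.58, 1.47, 1.40, 1.07 and −0.14. Among libraries labelled male alone (5 against 3), *Cfd*, *Retn* and *Adipoq* differed by 2.44, 1.03 and 0.38. There *Plin1*, *Fabp4* and *Lep* differed by −0.01, −0.0013 and −1.66. B-cell and follicle markers had 10 of 12 above 0 (median 0.41, *Pax5* 0.70, *Cr2* 0.69), with sums of 37.6 to 475 CPM against 40.9 to 403 CPM. The medians of these B-cell sums were close, at 50.9 and 47.3 CPM. T-cell markers had 6 of 6 above 0 (median 0.36, *Cd3g* 0.53, *Cd3e* 0.50), with sums of 10.3 to 69.4 against 13.2 to 39.3 CPM, and plasma cell markers 1 of 5 (median −0.21, *Jchain* −0.49, *Sdc1* 0.49), with sums of 389 to 999.8 against 539 to 959 CPM. The part of these cells in the differences above was not tested.

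Markers of neighbouring organs stood at different levels. The gastric markers *Gkn1*, *Gkn2* and *Muc5ac*, chosen after their values were seen, were at 0 in all 24 libraries, and the hepatocyte list summed to at most 3.80 CPM in either set. Pancreatic acinar markers were below 0 in 10 of 10 genes (median −0.73), but 9 of the 10 stayed at 14.1 CPM or less, while *Clps*, colipase, had 36.8 to 91.7 CPM and 42.6 to 213 CPM. The colonic list summed to 124 to 190 CPM in the distal-like and 151 to 302 CPM in the proximal-like set, nearly all of it from *Slc26a3*, a chloride-bicarbonate exchanger, and the mucin *Muc4*. *Slc26a3* had 50.2, 95.9 and 122 CPM against 104, 147 and 186 CPM and differed by −0.68 (SE = 0.191), and *Muc4* differed by −0.13 (SE = 0.527), both with overlap. Of the others, *Aqp8* was at or near 0 throughout, and *Car1* reached 11.4 CPM in CDmetf M2 and 9.11 CPM in HFDmetf M1 and was at most 0.272 CPM elsewhere.

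A library outside both sets lay with the distal-like ones on most of these genes. HFDmetf M1, first below the border, had 45.4 CPM of *Hoxb9* and 404 CPM of *Suox*, inside the distal-like range, and 39.8 CPM of *Gm53*, above it. Its *Lct*, *Ugt2a3*, *Cyp2b10* and *Gip* stood at 0.772, 0.154, 0.154 and 0.772 CPM, below every proximal-like library. Its *Fabp1*, at 47.5 CPM, was above the highest distal-like value of 9.90 CPM. The other 7 unused libraries had 0.876 to 2.90 CPM of *Hoxb9* and 342 to 2216 CPM of *Lct*. On *Hoxb9* they overlapped the proximal-like set, and on *Lct* they lay from just below the highest distal-like value up into the proximal-like range. On *Apoa4* they lay far apart. HFD M1 had 4374 and HFDmetf M3 1674 CPM, while HFD F3, CD M3 and CD F3 had 97.4, 96.7 and 94.3 CPM.

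The sets drew unevenly on the groups of the study. The distal-like set held 2 CD, 4 CDmetf, 1 HFD and 1 HFDmetf libraries, and the proximal-like set 1 CD, 2 CDmetf, 3 HFD and 2 HFDmetf libraries. By diet, 6 of the 8 distal-like libraries came from CD-fed and 2 from HFD-fed animals, against 3 and 5 in the proximal-like set. Without *Fabp1* in the ranking, the proximal-like set held 4 and 4. By drug, 5 distal-like and 4 proximal-like libraries came from metformin-treated animals. By label, 5 distal-like and 3 proximal-like libraries were male. Replicate number 2 gave 6 of the 8 distal-like and 2 of the proximal-like libraries, number 1 gave 1 and 4, and number 3 gave 1 and 2. The 8 libraries of number 2 had 1829690 to 3466430 reads on genes, with 21.7% to 46.9% of reads unmapped. The other libraries had 2296520 to 40606442 reads on genes and 7.58% to 38.05% unmapped. Set, number, depth and mapping thus ran partly together. The study's methods describe 3 blocks in time, and the labels do not say whether the replicate number marks them.

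The score is made of the genes that chose the sets, so its means are a description with no test. It averaged 2.85 ± 7.25 (SD, n = 12) in HFD-fed and 8.79 ± 8.94 (SD, n = 12) in CD-fed animals, a difference of −5.94. For metformin against no metformin the difference was 3.50, and for labelled males against females 2.71. Over 5 other settings the difference between diets ran from −1.99 (*Fabp6* and *Slc10a2* alone) to −6.67 (without HFD M2 and HFD F2). Within the groups the score ran from −3.76 to 17.18 in CD, from −6.66 to 19.12 in CDmetf, from −14.07 to 11.84 in HFD and from −2.08 to 11.53 in HFDmetf. Each group thus held libraries from both sets.

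The contrasts of the study were fitted without and with the score as a covariate, to describe how their values change when the 4-gene score is held fixed. In edgeR's quasi-likelihood fit over all 24 libraries with the group, sex and replicate number as terms, 0 of 14076 genes (0%) passed an FDR of 0.05 in CDmetf vs. CD, HFD vs. CD, HFDmetf vs. HFD or HFDmetf vs. CDmetf. The numbers with an unadjusted p under 0.05 were 724, 652, 931 and 1108. With the score added they were 592, 505, 757 and 1178, and again 0 genes passed. DESeq2's Wald test without the score called 4, 13, 0 and 3 genes, and limma-voom 0 in each. The study itself reports genes under this FDR threshold in each of these contrasts with limma-voom, with *Apoa4* among them in HFD vs. CD. Those calls were not recovered here, and the cause was not tested.

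*Apoa4* had a logFC of 4.06 (SE = 1.07) in HFD vs. CD, with an adjusted p of 1.00 by edgeR, and 2.19 with the score in the model. *Lct* had 1.08 and 0.51, and *Hoxb9* −1.26 and −0.22. In CDmetf vs. CD, *Hoxb9* had 1.61 without and 0.21 with the score, and *Lct* −1.09 and −1.65. None of these genes passed the test in any contrast. Single libraries moved the values of *Hoxb9* and *Lct* by more than 1.5 times, and *Apoa4* in HFD vs. CD ran from 3.03 (without HFD M3) to 4.41 (without CD M1). In HFD vs. CD, *Hoxb9* ran from −2.64 (without HFD F3) to −0.33 (without CD F2) and *Lct* from 0.70 (without CD M2) to 2.06 (without CD M1). In CDmetf vs. CD, *Hoxb9* ran from 1.07 (without CDmetf M3) to 2.36 (without CD F2) and *Lct* from −2.28 (without CDmetf F3) to −0.55 (without CD M1). Without the replicate block *Hoxb9* had −2.56 in HFD vs. CD and 0.63 in CDmetf vs. CD, and *Lct* 0.36 and −1.38. Whether adding the score shifts these values by more than the choice of libraries does was not tested.

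By gene group, 0 of the 7 genes *Hoxb3* to *Hoxb9* were above 0 in HFD vs. CD (median logFC −0.90), and the median was −0.31 with the score. Of the 237 lower genes, 231 were above 0 (median 0.36), and 162 with the score (median 0.11), beside medians of −0.00470 and −0.00734 over all 14076 genes. In CDmetf vs. CD the 7 Hoxb genes had a median of 0.49 and, with the score, −0.03, and the 237 genes −0.21 and −0.05. In HFDmetf vs. CDmetf the Hoxb median was −0.59 and with the score 0.27, and in HFDmetf vs. HFD 0.86 and 0.48. The lipid list had 13 of 13 genes above 0 in HFD vs. CD (median 0.65), 12 of 13 with the score (median 0.28), and 0 of 13 passed the test. With single libraries left out, the Hoxb median ran from −1.39 (without HFD F3) to −0.34 (without CD F2) in HFD vs. CD and from 0.22 (without CD M1) to 0.90 (without CD F2) in CDmetf vs. CD. In HFDmetf vs. CDmetf it ran from −1.32 (without HFDmetf M1) to −0.28 (without HFDmetf M2), and in HFDmetf vs. HFD from 0.20 (without HFDmetf M1) to 1.18 (without HFD F3). The median of the 237 genes ran from 0.25 (without HFD F2) to 0.55 (without CD M1) in HFD vs. CD and from −0.38 (without CDmetf F1) to −0.05 (without CD M1) in CDmetf vs. CD, and that of the lipid list from 0.38 (without HFD M3) to 0.84 (without HFD M2) in HFD vs. CD. The 75 and 237 genes were chosen on 16 of the same 24 libraries, in which the diets are uneven, so their direction here is not independent of that choice. They were also chosen from sets ranked by the score. Their smaller medians with the score in the model are therefore not independent of the choice either. The contrasts share control groups, and the score is itself measured, so a diet effect on the 4 genes and a difference in position cannot be told apart.

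**Figure D4:**
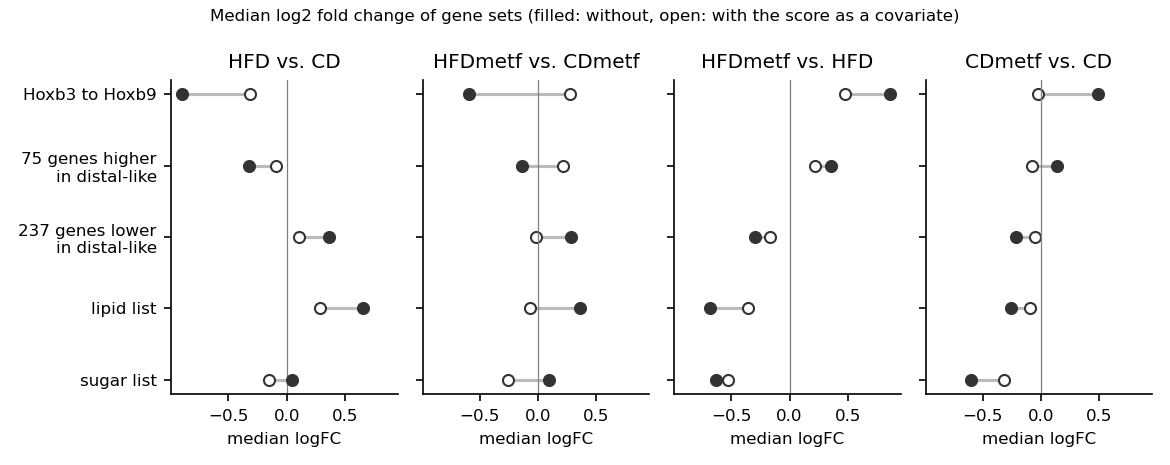
Median logFC (x axis) of 5 gene groups (rows) in the 4 contrasts (panels), without the score (filled) and with it as a covariate (open). In HFD vs. CD the median of *Hoxb3* to *Hoxb9* moves from −0.90 to −0.31 and that of the 237 lower genes from 0.36 to 0.11. The 237 genes were chosen from sets ranked by the score, so their change is not independent of that choice.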

How the data were processed

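Ileum RNA of 24 mice was sequenced, 1 library per animal and 1 animal per cage. Per the study's methods the authors depleted ribosomal RNA, prepared directional libraries, trimmed reads with Trimmomatic 0.39 and mapped and counted them per gene with STAR 2.5.3a on GRCm38. The deposited values are raw read counts of 55536 genes, with 0 columns of other samples. The annotation release and the counting strand are not given in the sources used here, so antisense and overlapping genes, and close copies, are uncertain. GENCODE symbols were found for 55450 identifiers. Groups, sexes and replicate numbers come from the labels.

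CPM used TMM factors (edgeR 4.0.16, R 4.3.3), and 14076 genes passed filterByExpr. The 2 sets of 8 libraries were compared by the difference of mean log2(CPM + 1), a pseudocount of 1 CPM, and by overlap, with no test, since measured values chose them. Contrasts used edgeR's quasi-likelihood test on the counts with the model terms group, labelled sex and replicate number, leaving 17 degrees of freedom, with Benjamini-Hochberg adjustment at 0.05. The number is in the model because the study's methods name a block as covariate, though no source ties the 2 together. The score by label class is given with no test. Alternatives were RLE scaling, limma-voom 3.58.1, DESeq2 1.42.0, other filters, pseudocounts, set sizes and rankings, thinned counts and leaving out each library. Medians of gene groups with single libraries left out of the contrasts were added after seeing the data. The scripts were tested on simulated data. Depth limits low genes, and floors cover counting error only.

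The members and the 21 gene lists were chosen with earlier results of these data known. Of 154 listed genes 153 were found (*Best4* was not). The rule for names took the 4 score genes, all genes of lists of up to 5, the 6 largest differences of longer lists, all Hox genes, and outside the lists the 12 largest differences without overlap in each direction. Names beyond it are marked as chosen after their values were seen. The sex-linked, antisense and hairpin genes were also named after the values were seen. A listed gene that the rule would name is not reported here.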

Additional observations from a re-analysis of the deposited data

Results flagged for a closer look

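In 44 groups of libraries examined, 4 held 1 library far from the others, where chance gives about 1 in 20. The groups were the distal-like or the proximal-like set of 8 for each of 20 genes, and the 6 libraries of each study group for the score. The 4 were all sets of 8 for single genes, on the log2(CPM + 1) scale. In the distal-like set, *Slc25a48* stood at 2.31 in HFDmetf F2, *Gm53* at 2.76 in HFD M2 and *Dnase1* at 3.27 in HFD M2. In the proximal-like set, *Hoxb7* stood at 2.05 in HFD M3. Each of the 4 values lay toward the other set. HFDmetf F2 and HFD M2 had the lowest scores of the distal-like set, HFDmetf F2 had the fewest reads on genes of that set, and HFD M2 went against its sex label. Their part in these values was not tested.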

How the results depend on the processing

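The counts of 75 higher and 237 lower genes depended on which libraries were set against each other. They were 321 and 396 for 6 against 6 libraries and 4 and 7 for 12 against 12, where fewer or more libraries make separation easier or harder by construction. Ranking by *Fabp6* and *Slc10a2* alone gave 64 lower genes, 53 of them among the 237, and the cause was not tested. With at least 10 counts in each of the 16 libraries fewer genes were tested and 46 were higher. Leaving out single libraries gave 76 to 159 higher and 238 to 397 lower genes, the highest of both without HFDmetf M2, and 120 were higher without HFDmetf F2. RLE scaling, no filter, the other rankings and thinning kept both counts within 1.5 times, but thinning to the smallest library kept only 46 of the 75 and 154 of the 237 genes among its 82 and 181. With 12 libraries a set, 4 CD-fed and 8 HFD-fed libraries were in the lower set. The proximal-like set held 4 CD-fed and 4 HFD-fed libraries when ranked without *Fabp1* or by *Fabp6* and *Slc10a2* alone. Ranked by *Fabp1* and *Gata4* alone, it held 2 and 6. The distal-like set held 6 and 2 in each of these rankings. With 6 libraries a set, the distal-like set held 6 and 0 and the proximal-like set 2 and 4. Of 4896 recomputed differences of single genes, 414 moved by more than the spread between libraries.

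Most list medians stayed within that spread, with these exceptions. A pseudocount of 0.1 CPM gave 0.77 for the distal peptides and 2.52 for *Hoxb3* to *Hoxb9*, and 12 libraries a set gave 1.70 for the latter. With the replicate block, group and sex in the model, the xenobiotic median was −0.98. Among settings added after seeing the data, HFD-fed libraries alone (2 against 5) gave 1.51 for *Hoxb3* to *Hoxb9*, 0.28 for bile acid genes, −0.00424 for distal and −0.64 for proximal peptides, −1.70 for lipid and −2.87 for retinoid genes. Replicate number 2 alone gave −1.02 for xenobiotic genes, and numbers 1 and 3 gave 0.63 for distal peptides. The cause of these shifts was not tested.

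DESeq2 called 13, 3 and 4 genes in HFD vs. CD, in HFDmetf vs. CDmetf and in CDmetf vs. CD. Leaving out single libraries gave 0 to 1 genes in HFD vs. CD (1 without CD F1). Without the replicate block 0 genes were called in each contrast by edgeR, with 526 genes in CDmetf vs. CD, 538 in HFD vs. CD, 782 in HFDmetf vs. HFD and 869 in HFDmetf vs. CDmetf below 0.05 before adjustment. After each gene's mean within the group was subtracted, libraries of the same sex and number correlated over 0.1 in 24 of 36 pairs between groups. The mean was 0.18, against −0.04 over 72 pairs of the same sex and other numbers, for which no such count was made. Libraries of number 2 had at most 3466430 reads on genes, and the part of depth in these correlations was not tested. What else libraries of the same number share was not tested either. The number stayed in the main model because the study's methods name a block. The difference of the score between label classes, a description added after seeing the data, kept its sign under the 5 settings tried.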
